A study of Homo sapiens with 2 samples.

Results

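Antisense RNAs are transcripts read from the strand opposite to another gene, most often a protein-coding one. Some start close to the promoter of their partner and run the other way, some lie inside it, and some meet it at its end. Members of the class are known to act on their neighbour through chromatin, through transcription across its promoter or by pairing with its mRNA, and many have no known role. All genes with the biotype antisense_RNA in the deposited expression table were taken as members, 227 of 1415 genes. Of these, 47 were named after another gene in the form GENE-AS, GENE-IT or GENE-OT, and for 7 of the 47 that gene was in the table too.

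A549, an established lung adenocarcinoma cell line, was studied as control cells (title A549,Control) and after knockout of NAT10 (title A549, NAT10 ko1). NAT10 is the enzyme that acetylates cytidine in RNA to give N4-acetylcytidine. The knockout was made with CRISPR/Cas9 and a pair of guide RNAs, with puromycin selection, and the cells came from a single-cell clone, so an effect of the knockout and a property of that clone cannot be told apart. There was 1 library in each of the 2 groups, and no time or dose was given. No difference has a replicate check, no test was made, and the intervals below hold the error of counting reads and no other.

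The values were RPKM, read counts scaled to exon length and to library size. The table held only genes whose level differed by more than 1 on the log2 scale with an unadjusted p-value under 0.05 in the authors' comparison, so each member was in it because it differed, and that it differed is not a result. For 222 of the 227 antisense RNAs, reads could be recovered as whole numbers from RPKM and exon length, on effective library sizes of 6077933 control reads and 5474964 knockout reads. NAT10 was not analysed here, so the knockout was not checked on its own transcript. Of 14 markers of A549 and of airway epithelium, CDH1 and MUC5B were in the table, both lower in the knockout. Of markers of other cell types, 1 of 5 for fibroblasts was (COL1A1, lower), and 0 of 5 for leukocytes and 0 of 3 for endothelium. In libraries of whole cultures, fewer cells that make an RNA and less of it per cell cannot be told apart.

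The antisense RNAs were divided almost evenly by direction. In the knockout 116 were lower and 111 were higher. The lower ones were 51.1%. Of all listed genes, 57.0% were lower, among protein-coding genes 61.4% and among long intergenic RNAs 50.4%. These shares describe the listed genes, and the differences between them were not tested.

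Their levels were low, as were those of most listed genes, and few reads stood behind them. The median of the mean RPKM was 1.42 for antisense RNAs, 0.849 for all listed genes and 0.621 for protein-coding genes. The median antisense RNA had 1.37 RPKM in the control and 1.5 RPKM in the knockout, and the highest had 40.0 and 28.1 RPKM. The 222 with recovered reads took 3117 control reads and 2518 knockout reads. The median member had 15 reads over both libraries together, with a range from 5 to 325, and 125 of the 222 had fewer than 20. In the knockout 28 of them were at 0 reads and in the control 18. Of those, 11 rested on 5 control reads against 0, and 9 on 5 knockout reads against 0. Over all 1342 listed genes with recovered reads the median was 19 reads, and 673 had fewer than 20. Of the 1342, 176 were at 0 reads in the knockout and 92 in the control, so few reads were not particular to antisense RNAs. Their exons were short, with a median of 720 bases against 4583 for the protein-coding genes of the table, so that a few reads give a higher RPKM.

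With levels as log2(RPKM + 1), a scale on which differences of low genes come out too small, 66 antisense RNAs were lower by more than 1 and 61 were higher by more than 1. These were 29.1% and 26.9% of the 227, against 19.4% lower and 13.4% higher over the whole table. With the pseudocount at 5 RPKM the counts were 3 and 2. A second measure was the interval of the read ratio, the 95% Clopper-Pearson interval of the knockout share of reads turned into a log2 ratio with the library sizes. It lay below no change for 71 and above it for 84 of the 222 (32.0% and 37.8%), against 39.0% and 33.4% of all genes with recovered reads, and it included no change for the other 67. The listing of the genes used the same 2 libraries, so nothing is read from these shares. An interval wholly beyond a 2-fold difference was found for 5 lower and 5 higher of the 222 antisense RNAs. Of all 1342 genes with recovered reads it was found for 104 lower and 57 higher. Nothing is read from these counts either.

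**Figure D1:**
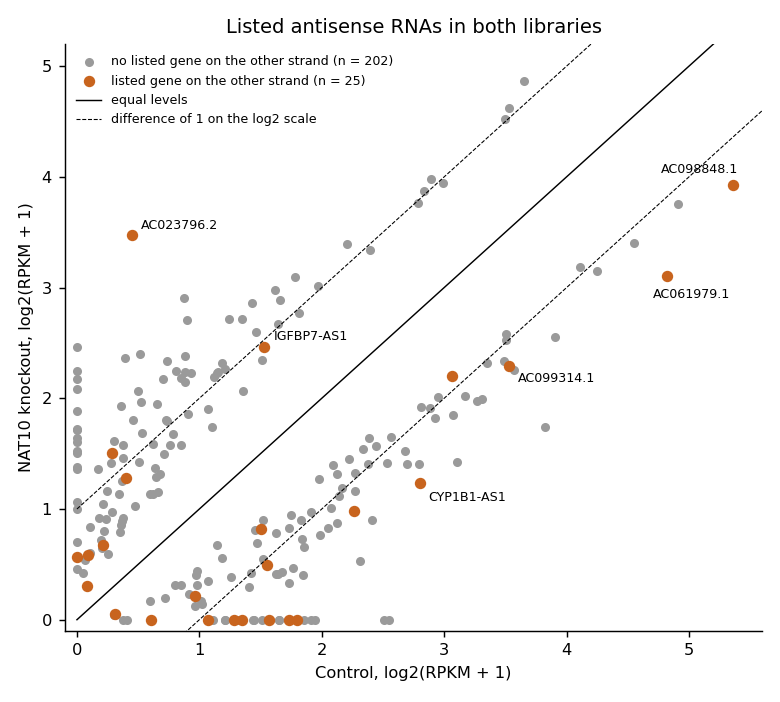
Level of each of the 227 antisense RNAs in the control (x axis) and the NAT10 knockout (y axis), both as log2(RPKM + 1), with 1 point per RNA and 1 library per axis. Orange points are the 25 with a listed gene of another biotype on the other strand. No point lies on the line of equal levels because the table held only genes that differed. Dashed lines mark a difference of 1, with 66 RNAs lower and 61 higher beyond them and the rest between them.

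The direction of each antisense RNA was then set beside that of its partner. By position in GENCODE release 29, 213 of 224 antisense RNAs with a position (95.1%) overlapped a protein-coding gene on the opposite strand. Those coding genes numbered 240, and 22 of them (9.17%) were in the table, against 3.99% of all 19951 coding genes of the annotation. With partners of any other biotype there were 27 overlapping pairs, formed by 25 antisense RNAs. In 24 of the 27 both genes differed in the same direction, and in 3 they went opposite ways.

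The pairs were divided by whether exons overlapped. In 18 pairs the exons of both genes shared bases, and in 18 of 18 both genes differed the same way, 12 lower and 6 higher. In the 9 pairs with no shared exon bases, 6 went the same way and 3 did not. As a description of listed genes that do not overlap, each antisense RNA was set beside the nearest listed gene of another biotype, at any distance. Of these pairs 116 of 224 (51.8%) went the same way. Only 30 of the 224 lay within 100 kb, and 14 of the 30 went the same way, so most of these pairs were of distant genes. Opposite-strand overlap among the listed genes of other biotypes gave 20 of 21 pairs in the same direction, 12 of 13 of them with shared exon bases and 8 of 8 without, so pairs in the same direction were also found outside the antisense RNAs.

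**Figure D2:**
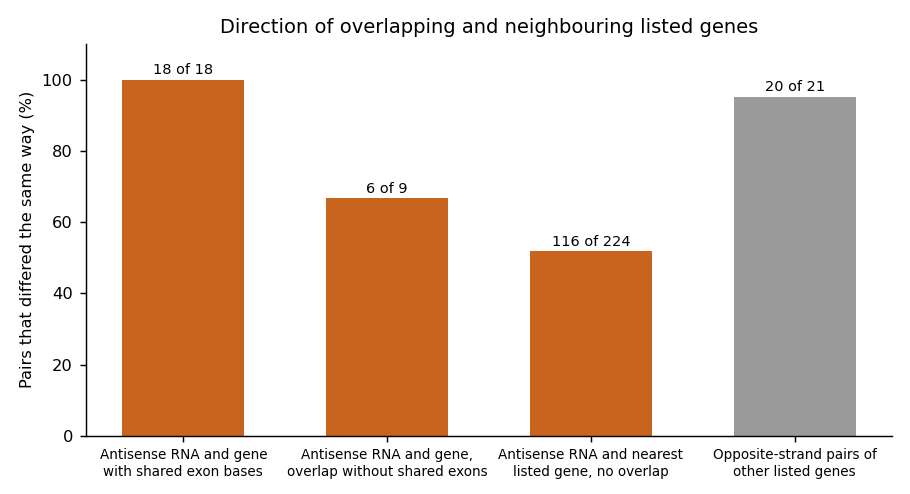
Percentage of gene pairs in which both genes were higher or both lower in the knockout (y axis, from 0), for 4 kinds of pairs on the x axis, with the counts above each bar. Pairs of an antisense RNA with a gene that shares exon bases stand at 18 of 18. An antisense RNA with its nearest listed gene that does not overlap, at any distance, stands at 116 of 224.

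How reads were given to strands is not stated in the sources used here. If strand was not used, reads from a shared exon cannot be assigned to one gene or the other, and the values of both genes are uncertain. Exon bases shared with a coding gene of the other strand, listed or not, were found for 153 of the 224 antisense RNAs (68.3%). In the 18 pairs the shared bases made up 3.31% to 100% of the antisense exons, with a median of 20.3%. The part of shared reads in the common direction was not tested.

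The stretches below show where an antisense transcript enters, leaves or lies within an exon of its partner. They are given for the pairs whose antisense RNA had the most reads and for the largest difference. Each is the antisense transcript from 5′ to 3′ (GENCODE release 29, GRCh38), with the bases that are also exon of the partner, read from the other strand, in capitals.
CYP1B1-AS1, chr2:38075746-38075805, plus strand, entering the 5′ UTR of CYP1B1: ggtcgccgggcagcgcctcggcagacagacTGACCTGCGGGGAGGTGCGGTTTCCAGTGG
CYP1B1, the same 30 shared bases as its mRNA reads them: CCACTGGAAACCGCACCTCCCCGCAGGTCA
AC098848.1, chr18:54888089-54888148, minus strand, entering coding sequence of RAB27B: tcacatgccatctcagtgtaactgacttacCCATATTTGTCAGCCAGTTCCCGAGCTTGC
IGFBP7-AS1, chr4:57109847-57109906, plus strand, entering coding sequence of IGFBP7: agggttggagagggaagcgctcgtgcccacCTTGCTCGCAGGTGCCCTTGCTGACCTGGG
AC061979.1, chr11:1249647-1249676, minus strand, within coding sequence of MUC5B: TGGATCCAGTGGATGCAGTCGTAGTGGCTG
AC099314.1, chr16:68823497-68823526, minus strand, within coding sequence of CDH1: ACAGTCACACACGCTGACCTCTAAGGTGGT
AC023796.2, chr12:24836477-24836506, plus strand, within coding sequence of BCAT1: GCTTACAAAAGTTGTTCATATCAAAGGCAC

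CYP1B1-AS1 (ENSG00000232973, chromosome 2, 38073447 to 38231651, plus strand) had the most reads of all antisense RNAs. It overlaps CYP1B1 head to head, starting inside that gene, with annotated starts 36455 bases apart. CYP1B1 is a cytochrome P450 that oxidizes xenobiotics and oestrogens and is a classical target of the aryl hydrocarbon receptor. CYP1B1-AS1 had 5.97 RPKM in the control and 1.35 RPKM in the knockout, from 270 and 55 reads. CYP1B1 had 23.6 and 5.98 RPKM, from 861 and 197 reads. Both were lower in the knockout, CYP1B1-AS1 by a log2 read ratio between -2.59 and -1.72 and CYP1B1 between -2.21 and -1.75. The antisense ratio minus the partner ratio was -0.17 on the log2 scale, with a 95% interval of the conditional odds ratio from -0.67 to 0.32, so unequal change was not detectable at this depth. Shared bases were 678 of the 7447 exon bases of CYP1B1-AS1, or 9.10%.

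AC098848.1 (ENSG00000267112, chromosome 18, 54885866 to 54898083, minus strand) had the highest mean level of the class. It meets the end of RAB27B, a small GTPase of vesicle secretion. AC098848.1 had 40.0 RPKM in the control and 14.2 RPKM in the knockout, from 138 and 44 reads. RAB27B had 14.6 and 7.08 RPKM, from 660 and 288 reads. Per length the antisense RNA was thus above its partner in both libraries. The 341 shared bases were 60.1% of its exons, and the difference of the log2 ratios was -0.45, with an interval from -1.02 to 0.09.

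AC061979.1 (ENSG00000255177, chromosome 11, 1242261 to 1249676, minus strand) lies inside MUC5B, the gene of a gel-forming airway mucin, and 100% of its 434 exon bases are also MUC5B exon. It had 27.3 RPKM in the control and 7.58 RPKM in the knockout, from 72 and 18 reads. MUC5B had 11.1 and 3.14 RPKM, from 1250 and 320 reads. The RPKM of AC061979.1 was 2.47 times that of MUC5B in the control and 2.41 times in the knockout. The difference of their log2 ratios was -0.03, with an interval from -0.89 to 0.75.

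In 3 other pairs with lower levels in the knockout the partner was a well-covered coding gene. AC099314.1, inside CDH1 (E-cadherin, the epithelial adhesion molecule), had 36 control reads and 12 knockout reads, and CDH1 had 331 and 127. AL512380.2, head to head with SOX4, a transcription factor of progenitor and tumour cells, had 21 and 4 reads, and SOX4 had 449 and 171. AC004160.2, inside THSD7A, a membrane protein with thrombospondin repeats, had 13 and 3 reads, and THSD7A had 571 and 201. In each of them the partner had far more reads than the antisense RNA, and all 6 intervals of the read ratio lay below no change.

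AC025580.1 and C15orf48 reached 0 reads together. C15orf48 encodes a small mitochondrial protein. AC025580.1 had 11 control reads and 0 knockout reads, 3.30-fold lower against a floor of 3 reads in the knockout, and C15orf48 had 19 and 0, 5.71-fold lower. AL354811.1, head to head with the glypican gene GPC6, had 10 reads and 0, 3.0-fold lower against that floor, and GPC6 had 70 and 8. The counting error of the control reads is not in these folds, and they are not lower bounds. The interval of the log2 read ratio reached up to -1.18 for AC025580.1, -2.07 for C15orf48 and -1.01 for AL354811.1.

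The remaining lower pairs with shared exons had few reads. AC004130.1 had 6 reads and 0 beside ITGB8, an integrin subunit with 29 and 8. SLC12A5-AS1 had 13 and 2 beside SLC12A5, a potassium chloride cotransporter with 30 and 12. AP000757.2 had 25 and 11 beside FXYD2, a subunit of the sodium pump with 13 and 2. For AP000757.2 the interval of its own ratio, from -2.20 to 0.04, included no change. SPATA17-AS1 had 5 reads and 0, and SPATA17 had 23 and 10, and both of their intervals included no change.

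In the other 6 pairs with shared exons both genes were higher in the knockout, and AC023796.2 had the largest log2(RPKM + 1) difference of all 227, 3.03. It lies inside BCAT1, the cytosolic aminotransferase of branched-chain amino acids. AC023796.2 (ENSG00000256482, chromosome 12, 24830421 to 24836558, plus strand) had 0.36 RPKM in the control and 10.1 RPKM in the knockout, from 1 and 25 reads, with a log2 read ratio between 2.18 and 10.2. BCAT1 had 0.87 and 5.89 RPKM, from 62 and 380 reads, with a ratio between 2.38 and 3.18. The 2 intervals overlap, and the difference of the log2 ratios, 2.03, had an interval from -0.64 to 7.41. Shared bases were 82, or 18.2% of the antisense exons.

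IGFBP7-AS1 starts head to head with IGFBP7, which encodes a secreted binding protein of insulin-like growth factors. It had 20 control reads and 43 knockout reads, and IGFBP7 had 77 and 172. Their log2 ratios differed by -0.05, with an interval from -0.96 to 0.89. SLC8A1-AS1 had 3 and 11 reads beside SLC8A1, a sodium-calcium exchanger with 23 and 84. AC004846.1 had 3 and 10 reads beside PAPLN, an extracellular matrix protein with 35 and 90. AF106564.1 had 1 and 7 reads beside NEFM, a neurofilament subunit with 1 and 9, and AC009299.3 had 0 and 8 beside the long intergenic RNA LINC01806, also with 0 and 8. For AC004846.1 and AF106564.1 the antisense interval included no change.

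**Figure D3:**
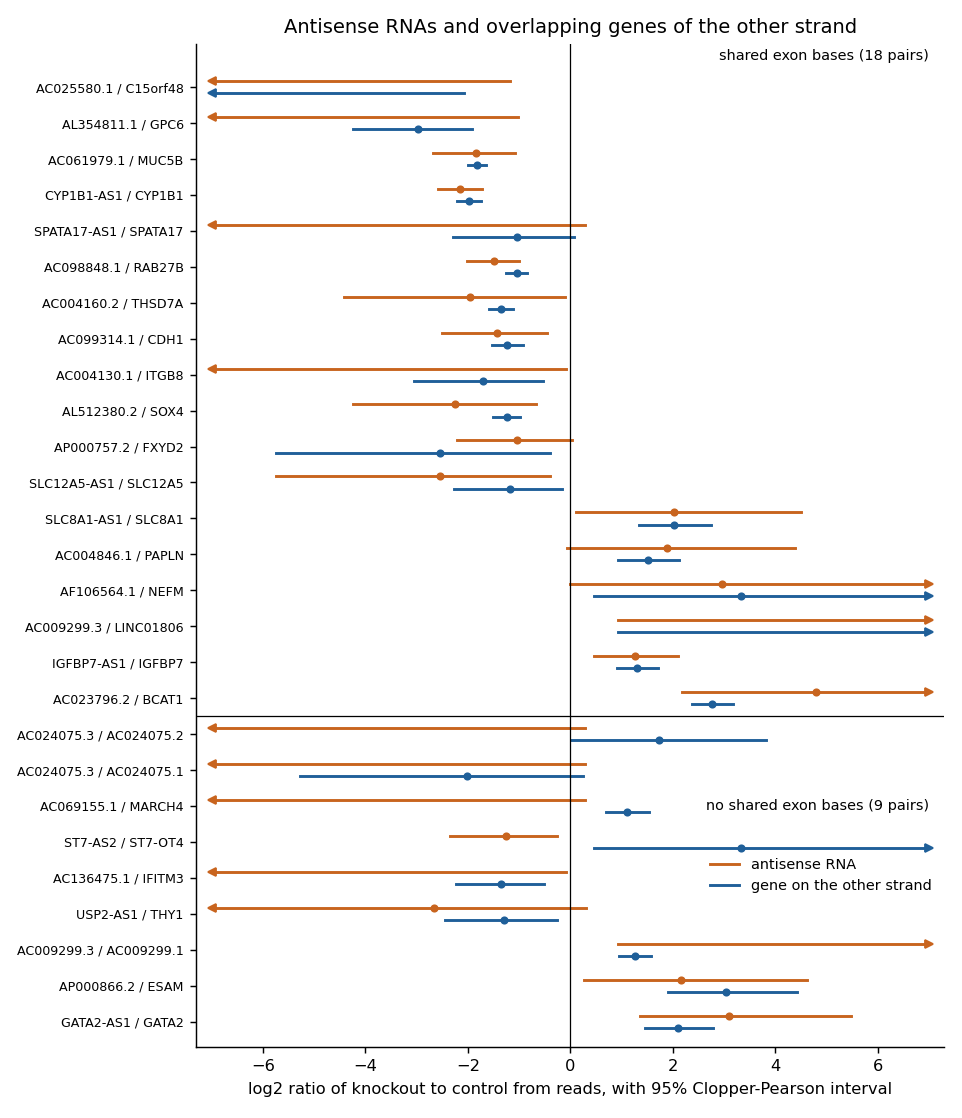
log2 ratio of knockout to control reads for the 27 overlapping pairs, 18 with shared exon bases above the line and 9 without below it. Orange is the antisense RNA, blue the listed gene of the other strand, points are the ratios and bars their 95% Clopper-Pearson intervals of counting error, and an arrow marks an interval that goes on past the axis. In each pair above the line both genes lie on the same side of 0, 12 pairs to the left and 6 to the right.

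Equal change of both genes lay inside the interval in 16 of the 16 pairs with shared exons for which one could be formed. Without shared exons it lay inside in 6 of 9. The 3 pairs outside were those that went opposite ways. An interval that includes equal change does not show that the genes changed alike, and that of AC023796.2 and BCAT1 was wide. Head to head overlap was found in 9 pairs, 9 of them in the same direction, and the antisense gene lay inside its partner in 9, of which 8 were in the same direction.

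Among the pairs without shared exons, GATA2-AS1 overlaps head to head with GATA2, a transcription factor of blood and endothelial cells. GATA2-AS1 (ENSG00000244300, chromosome 3, 128489212 to 128502348, plus strand) had 3 control reads and 23 knockout reads, with a ratio between 1.36 and 5.47. GATA2 had 26 and 100, with a ratio between 1.46 and 2.78. Both were higher, with no exon bases in common in the annotation.

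AP000866.2 was higher with ESAM, an adhesion molecule of endothelial junctions, at 3 and 12 reads against 7 and 52. Lower together were AC136475.1 (6 reads and 0) with the antiviral membrane protein IFITM3 (48 and 17), and USP2-AS1 (7 and 1) with THY1, a surface glycoprotein (30 and 11). The interval of USP2-AS1, from -8.15 to 0.30, included no change. USP2-AS1 is named for USP2, which was not analysed here. The chromosome 19 RNA AC024075.3, with 5 reads and 0, overlapped a pair of sense intronic genes, AC024075.1 at 9 and 2 reads and AC024075.2 at 4 and 12. The intervals of AC024075.3 and of AC024075.1, which ran from -5.27 to 0.25, included no change. AC009299.3, named above, also lies over the processed pseudogene AC009299.1, at 125 and 269 reads.

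The 3 pairs in opposite directions had no exon bases in common. AC069155.1 had 5 control reads and 0 knockout reads, while MARCH4, a membrane-bound ubiquitin ligase, had 74 and 144. ST7-AS2 had 32 and 12 reads, while ST7-OT4, a transcript of the same locus, had 1 and 9. AC024075.3 and AC024075.2 were the third. The interval of AC069155.1 and of AC024075.3 included no change, so ST7-AS2 with ST7-OT4 was the one pair of the 3 in which both intervals excluded it, on opposite sides. Their log2 ratios differed by -4.49, with an interval from -10.1 to -1.41.

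By name alone, 6 of the 7 pairs went the same way. These were the pairs of CYP1B1, GATA2, IGFBP7, SLC12A5, SLC8A1 and SPATA17, all of them overlapping. The exception was CEBPA-AS1 (ENSG00000267296, chromosome 19, plus strand), which does not overlap CEBPA. CEBPA is a transcription factor of differentiation in lung, liver and myeloid cells. CEBPA-AS1 had 0.60 RPKM in the control and 1.5 RPKM in the knockout, from 8 and 18 reads, with a ratio between 0.05 and 2.73. CEBPA had 4.0 and 2.01 RPKM, from 64 and 29 reads, with a ratio between -1.68 and -0.34. The antisense RNA was higher and its partner lower, and the difference of 2.29 had an interval from 0.83 to 3.87.

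CEBPA and CEBPA-AS1 point away from each other, and their annotated starts are 293 bases apart. Their RefSeq promoter windows (GRCh38.p14, 250 bases before to 50 after each start) share 214 bases and are shown because genes that start so close to each other differed in opposite directions. RefSeq lists CEBPA-DT with CEBPA-AS1 as a synonym. The window was matched by that synonym alone, since the Ensembl identifier of CEBPA-AS1 was not found in the RefSeq entry. The motifs TATAAA and CCAAT were searched on both strands, and matches are in capitals.
CEBPA, chr19:33302485-33302784, minus strand: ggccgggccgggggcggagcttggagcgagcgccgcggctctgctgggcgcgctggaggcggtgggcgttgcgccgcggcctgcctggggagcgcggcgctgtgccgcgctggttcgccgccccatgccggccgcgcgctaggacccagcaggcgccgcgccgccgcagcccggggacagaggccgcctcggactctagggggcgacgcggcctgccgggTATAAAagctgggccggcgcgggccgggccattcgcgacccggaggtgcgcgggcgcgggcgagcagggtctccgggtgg
CEBPA-AS1, chr19:33302571-33302870, plus strand: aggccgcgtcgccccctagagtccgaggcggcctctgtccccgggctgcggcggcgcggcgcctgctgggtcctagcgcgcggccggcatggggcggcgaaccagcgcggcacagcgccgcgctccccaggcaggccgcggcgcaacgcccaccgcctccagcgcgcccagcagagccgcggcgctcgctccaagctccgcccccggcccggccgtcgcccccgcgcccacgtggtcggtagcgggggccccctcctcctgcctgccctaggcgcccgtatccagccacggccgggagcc

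The window of CEBPA holds TATAAA and that of CEBPA-AS1 does not, since the match lies outside the 214 shared bases. Neither holds CCAAT. Over all 35116 promoter windows 11.5% hold TATAAA and 34.6% hold CCAAT. Of the antisense RNAs outside chromosome 8, 33 were matched by symbol to a window, and 4 of these hold TATAAA and 13 hold CCAAT. A match is a description of letters, not a binding site.

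Beyond the pairs, the largest differences rested on few reads. The 8 lowest differences on the log2(RPKM + 1) scale ran from -2.55 to -1.79. AL355312.3, over LRP11, a receptor-related membrane protein, had 13.2 RPKM in the control and 2.34 RPKM in the knockout, from 25 and 4 reads, with a ratio between -4.48 and -0.96. AL358472.3, over the zinc transporter gene SLC39A1, had 10 reads and 1. The other 6 were at 0 reads in the knockout. Among them were AL138921.2 over CHUK, a kinase of the NF-kappaB pathway (10 reads and 0), AC018761.4 over the F-box gene FBXW9 (8 and 0) and AL139120.1 over VTI1A, a SNARE protein (6 and 0). TAB3-AS1 and PSMD6-AS1 had 7 reads and 0 each, and are named for an adaptor of the TAK1 kinase and for a proteasome subunit. AC025580.1 has been described. The sense genes other than C15orf48 were not analysed here.

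The 8 highest ran from 1.89 to 3.03. After AC023796.2, the one with the most reads was AC073834.1 over TTC30A, a gene of ciliary transport, with 0.84 RPKM in the control and 6.50 RPKM in the knockout, from 3 and 21 reads, and a ratio between 1.21 and 5.35. AC245884.1 over TTYH1, an ion channel gene, had 1 and 12 reads, and AC007216.2 over GSPT1, a translation termination factor, had 1 and 9. The other 4 had 0 reads in the control. AC011389.2 over SLIT3, a guidance cue, and AL133260.2 over MTHFD1L, a mitochondrial folate enzyme, had 7 reads each in the knockout. AC006435.3 over SGSM2 and AL137071.1 over GLIS3 had 5 each, and the lower limit of their log2 read ratio was 0.02. The sense genes other than BCAT1 were not analysed here.

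An interval wholly beyond a 2-fold difference was found for 10 of the 222 antisense RNAs with recovered reads. Of these 10, 6 were among the 25 in the overlapping pairs, and nothing is read from that split. Lower were CYP1B1-AS1, AC061979.1, AC025580.1, AL354811.1 and AL138921.2. Higher were AC023796.2, GATA2-AS1, AC073834.1, AC068025.1 (4 and 23 reads) and AL807761.4 (0 and 9 reads). Nearest to no change in the list were RAET1E-AS1 and HOXB-AS1, each with 31 and 14 reads and a log2 read ratio of -1.0.

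The 5 antisense RNAs with the highest mean RPKM were AC098848.1, AP003068.3, AC005104.1, AC061979.1 and AC145207.8. AP003068.3, over ZNHIT2, had 29.1 RPKM in the control and 12.5 RPKM in the knockout, from 31 and 12 reads. AC005104.1, over the septin gene SEPT2, had 11.5 and 28.1 RPKM, from 31 and 68 reads. AC145207.8, over MAFG, a small Maf transcription factor, had 10.5 and 23.7 RPKM, from 36 and 73 reads. Exons of each of the 5 share bases with their coding gene. Of the 5, 3 were lower and 2 were higher.

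A list of 66 antisense RNAs that have been studied elsewhere had 4 members in the table, 2 lower and 2 higher. NNT-AS1 had 51 control reads and 17 knockout reads, with a ratio between -2.32 and -0.62. HOXB-AS1, of the HOXB homeobox cluster, had 31 and 14, with a ratio between -2.02 and -0.04. HOXA10-AS, of the HOXA cluster, had 7 and 18, with a ratio between 0.19 and 3.02. HAGLR, of the HOXD cluster, was at 0.034 RPKM in the control and 0.34 RPKM in the knockout, and its reads could not be recovered. A list of 25 genes that bind, edit or cut double-stranded RNA, which paired sense and antisense transcripts can form, had 0 members in the table. Of all coding genes of the annotation 3.99% were in the table, so few members of so short a list could be there. Nothing is read from the 0 of 25 or from the 4 of 66.

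By chromosome, antisense RNAs of chromosome 2 were mostly higher in the knockout. There were 3 lower and 17 higher, against 112 lower and 92 higher on the other chromosomes together. The other listed genes of chromosome 2 leaned the same way, with 24 lower and 70 higher. On chromosome 11, 13 were lower and 5 were higher. The other listed genes of chromosome 11 were not counted by direction, so nothing is read from this. Of the overlapping pairs 5 were on chromosome 2, and without them 20 of 22 pairs went the same way. The number of chromosome copies was not measured in these data.

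**Figure D4:**
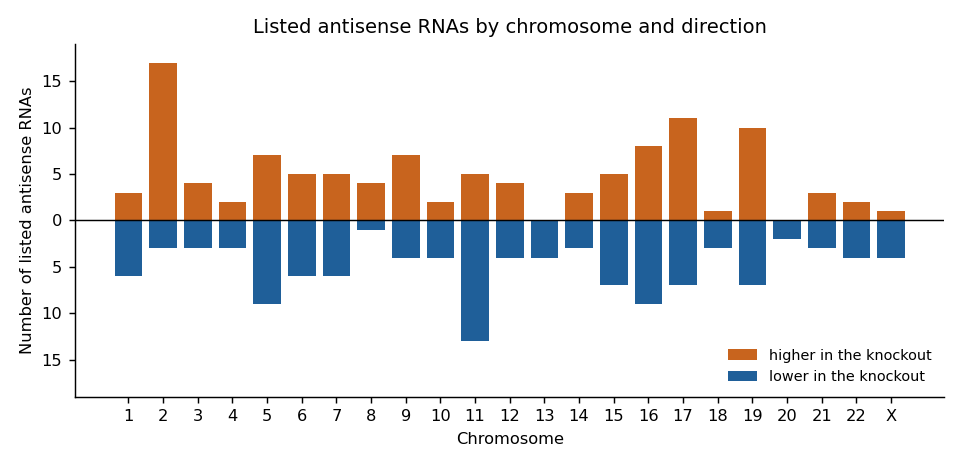
Number of listed antisense RNAs on each chromosome (x axis), with those higher in the knockout drawn upward and those lower drawn downward (y axis, counts). Chromosome 2 has 17 higher and 3 lower, and chromosome 11 has 5 higher and 13 lower.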

How the data were processed

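Total RNA of the control and knockout cells was sequenced after library preparation with a SMARTer kit for mRNA, 1 library per group. The authors deposited RPKM for each gene and library, with a log2 fold change, and p-values before and after adjustment, in a table limited to a log2 fold change beyond 1 and p under 0.05. These comparison columns were read only to check those limits. The RPKM columns were labelled WT-input and NAT10-KO-input. WT-input was matched to the sample titled A549,Control because that was the only sample without a knockout. The build per the labels was hg38. The aligner, the annotation, the counting tool and its use of strand are not given in the sources used here.

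Exon lengths and positions came from GENCODE release 29 (GRCh38), matched by Ensembl identifier, and gene bodies had to overlap by at least 1 base. Whole reads (within 0.01) were recovered from RPKM, length and library size for 1342 of 1408 genes with a length (95.3%). Ratios are knockout over control. Differences of levels used log2(RPKM + 1), and intervals used 95% Clopper-Pearson limits of the recovered reads or the conditional odds ratio (scipy 1.17.1, numpy 2.4.6, pandas 2.3.3, Python 3.11.15). There were no molecular identifiers, so amplified copies of a molecule could not be told from separate molecules. Intervals and the floor of 3 reads treat each read as separate, and cover the error of counting reads only. Recovery and intervals were run on reads simulated with the same exon lengths, library sizes and counting error. Such a run checks the calculation, and cannot check the annotation or the error of the real reads.

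Named were antisense RNAs whose partner by name was listed, the 8 lowest and 8 highest differences, the 5 highest levels, members of the list of studied antisense RNAs, and listed genes on the other strand of all these. The other overlapping pairs, the 10 with an interval beyond a 2-fold difference and the RNAs nearest to no change were added after values were seen. The members and the lists were chosen with earlier results of these data known. Values with other pseudocounts, filters and intervals are given at the end. The divisions by arrangement and chromosome, the nearest genes, the pairs of other biotypes, the difference of ratios and the promoters were added after the pairs had been seen.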

Additional observations from a re-analysis of the deposited data

How the results depend on the processing

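Of the 27 overlapping pairs 24 went the same way, against 18 of 18 with shared exon bases, 16 of 17 with at least 10 reads in each gene, 22 of 25 with each antisense RNA counted once, and, as settings added after the data were seen, 20 of 22 without chromosome 2 and 21 of 22 with protein-coding partners. The 6 of 7 named pairs were 5 of 6 with at least 10 reads in each gene and 2 of 2 with both genes beyond 1 on the log2(RPKM + 1) scale. The 66 lower and 61 higher antisense RNAs beyond 1 on that scale came to 112 and 108 at a pseudocount of 0.1 RPKM, to 3 and 2 at 5 RPKM, to 50 and 54 with a mean RPKM of at least 1, and 37 and 42 with at least 10 reads. A pseudocount pulls low genes toward 0, and a filter can only lower a count. The 71 lower and 84 higher with an interval beyond no change were 103 and 108 with the Wilson interval, 57 and 66 with at least 10 reads, and 5 and 5 with an interval beyond a 2-fold difference. For the 60 named genes and partners, 86 of the values with another pseudocount lay inside the interval of the read ratio and 34 outside it or had no interval. Of these values 0 changed sign, but a pseudocount cannot reverse a sign, so this is not a check. No paired analysis was possible because each group had 1 library. For the same reason no library could be left out. Depth was a median of 15 reads per antisense RNA over both libraries, and 67 of 222 intervals included no change.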
